A study of Homo sapiens with 12 samples.

Results

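The signal recognition particle (SRP) is represented here by 9 of the 57773 genes in the RNA tables: RN7SL1, RN7SL2 and RN7SL3, which encode its 7SL RNA, and SRP9, SRP14, SRP19, SRP54, SRP68 and SRP72, which encode its 6 proteins. Members were taken by gene symbol in the RNA tables, with the 3 copies of 7SL read singly and as a sum, and the protein genes were taken by Ensembl identifier in the footprint sheets, where all 6 were present. All cells were HEK293 T-Rex cells, a human embryonic kidney line that carries the repressor for doxycycline-inducible transgenes. The lines were stable lines inducibly expressing V5-H2B-APEX2 (H2B-APEX2, which puts the peroxidase on chromatin), Connexin43-EGFP-APEX2 (Connexin43-APEX2, fused to a protein of cell contacts) or V5-APEX2-NES (APEX2-NES, with a nuclear export signal), and the T-Rex line without APEX2 was the negative control (control cells). APEX2 biotinylates proteins close to it when it is given biotin-phenol and peroxide. All 4 lines, control cells included, were labelled with 4-thiouridine (4SU, a photoreactive nucleoside) and induced with doxycycline over 16 h, and then had 30 min of biotin-phenol. Each line gave 1 sample of total RNA, 1 of bound RNA (RNA recovered with the biotinylated proteins) and 1 of footprints (RNA stretches protected by bound proteins), so that the 12 samples form 12 groups of 1. No replicate check exists for any difference, no test across conditions was made, and a gene was called by the size of its difference. The sources used here do not say whether a line was 1 clone.

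SRP binds the signal peptide of a secretory or membrane protein as it leaves the ribosome, slows translation and brings the ribosome to its receptor on the endoplasmic reticulum, where the chain enters the Sec61 channel. The RNA folds into an Alu domain, bound by SRP9 and SRP14, which slows elongation, and an S domain, bound by SRP19, SRP68, SRP72 and SRP54, the GTPase that holds the signal peptide. RNA polymerase III transcribes 7SL, most of the particle assembles in the nucleolus, and it works in the cytosol. The values below are of 7SL itself and of the mRNAs of the 6 proteins, not of the proteins.

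Every 7SL value depends on telling the 3 copies apart. They were compared as GENCODE 29 transcripts matched by symbol, and differed at 11 positions. RN7SL1 was 98.3% identical to RN7SL2 and 97.7% identical to RN7SL3, and RN7SL2 was 96% identical to RN7SL3. RN7SL1 and RN7SL2 had fewer stretches of their own than RN7SL3. Against 679 other RN7SL transcripts of the annotation, 39 of the 250 windows of 50 bases in RN7SL1 were unique. In RN7SL2 34 of 251 were unique, and in RN7SL3 162 of 250. The RNA data list 845 RN7SL pseudogenes, more than were compared, so fewer windows may be unique among them. RN7SL1 also shared 64% of its 50-base windows with RN7SL5P, a pseudogene, and 33.6% with RN7SL4P. The sources used here do not say how the authors' counting placed reads that match several copies. The 7SL results are therefore given for the 3 copies summed and for the copies summed with the 845 genes named as RN7SL pseudogenes.

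RNA was measured in a 2016 table, which lacks H2B-APEX2, and in a 2017 table, and repeat columns of a line are runs of 1 sample. The RNA libraries held 8959049 to 56785950 listed reads, of which 3.5 to 60.1% fell on protein-coding genes. One total RNA column of 2016 names no line and enters no comparison. Of the 4 markers of HEK293 cells, PAX2 and LHX1, kidney lineage factors, and NEFM, a neurofilament gene, were near 0 or listed at 0 in the bound libraries, and VIM, an intermediate filament gene, made up nearly the whole of the list's level. All 4 fibroblast-like markers (COL1A1, COL3A1, THBS1 and LGALS1) had reads in every library, and their summed RPKM (reads per kilobase, scaled to library size) in bound RNA of 2017 was 2.64 in H2B-APEX2, 40 in Connexin43-APEX2, 95.1 in APEX2-NES and 130 in control cells. In bound RNA of 2016 it was 58.6 in Connexin43-APEX2, 59.1 in APEX2-NES and 639 in control cells, and in total RNA of 2017 it was 5.57 to 25.8. The erythroid markers HBA1 and HBA2 summed to at most 2.48 RPKM in bound RNA, and in total RNA of 2017 to 34.4 in H2B-APEX2, 9.62 in Connexin43-APEX2, 8.5 in APEX2-NES and 11.1 in control cells. The leukocyte marker PTPRC was at most 0.393. Among bound libraries, those of control cells thus held the most of the fibroblast-like list and that of H2B-APEX2 the least. The part of this in the SRP results was not tested, and in bulk samples fewer cells of a type and less RNA per cell cannot be told apart.

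7SL made up a large share of total RNA of 2017 and a small share of H2B-APEX2 bound RNA. In bound RNA of 2017, the copies and pseudogenes together took 1.64% of listed reads in H2B-APEX2, 7.74% in Connexin43-APEX2, 19.8% in APEX2-NES and 10.1% in control cells. In bound RNA of 2016 they took 6.72% in Connexin43-APEX2, 12% in APEX2-NES and 20.3% in control cells. In total RNA of 2017 they took 56.3% in H2B-APEX2, 47.4% in Connexin43-APEX2, 42.2% in APEX2-NES and 46.2% in control cells. The total RNA column of 2016 that names no line held 11.3%, below bound RNA of APEX2-NES and control cells in that table. Total RNA of 2017 was above every bound library, and the H2B-APEX2 bound library was the lowest of all. The totals behind the RPKM values are larger and were inferred from reads, lengths and RPKM. As shares of them, the bound values of 2017 are 0.395% in H2B-APEX2, 1.89% in Connexin43-APEX2, 6.24% in APEX2-NES and 4.57% in control cells. Those of 2016 are 2.83% in Connexin43-APEX2, 2.59% in APEX2-NES and 12.2% in control cells, so that Connexin43-APEX2 and APEX2-NES change order there. The negative control, which has no APEX2, held more 7SL than APEX2-NES in bound RNA of 2016 and less in 2017. The 95% Wilson intervals of these shares are at most 0.0454 percentage points wide and cover counting error only. The total libraries were depleted of ribosomal RNA and the bound libraries were not, per the labels, so the kind of RNA and the library preparation cannot be told apart.

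**Figure D1:**
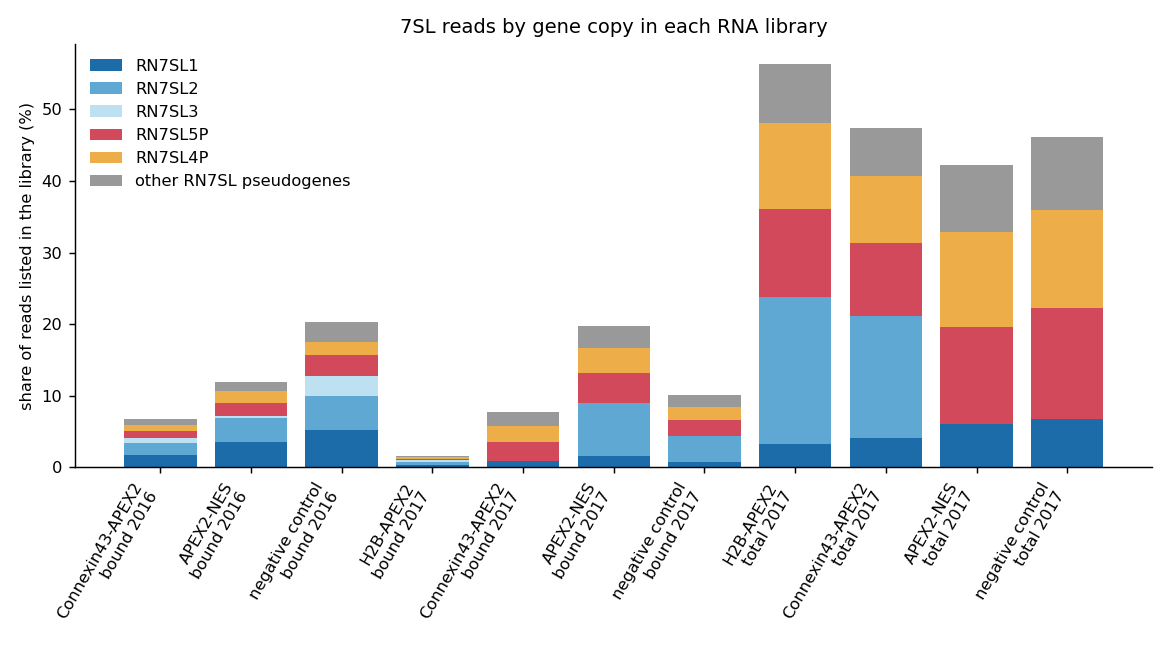
Share of the reads listed in each RNA library, in percent, that fell on each 7SL copy, on RN7SL5P, on RN7SL4P and on the other RN7SL pseudogenes, as stacked bars with 1 bar per library. The H2B-APEX2 bound library of 2017 has the shortest bar (1.64%), and RN7SL2 fills part of the bar in total RNA of H2B-APEX2 and Connexin43-APEX2 but not of APEX2-NES or the negative control.

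The copies did not keep a fixed ratio from library to library. RN7SL1 was above 0 throughout, with 3318 RPKM in H2B-APEX2 bound RNA of 2017, 7016 in Connexin43-APEX2, 16597 in APEX2-NES and 10556 in control cells. In total RNA of 2017 it was at 81582 RPKM in H2B-APEX2, 96872 in Connexin43-APEX2, 124616 in APEX2-NES and 137684 in control cells. RN7SL1 was thus higher in total than in bound RNA of each line. RN7SL2 behaved differently, with 3156 RPKM in H2B-APEX2 bound RNA of 2017, 78733 in APEX2-NES and 56251 in control cells, and it was listed at 0 in Connexin43-APEX2. In total RNA of 2017 RN7SL2 had 526515 RPKM in H2B-APEX2 and 408758 in Connexin43-APEX2, but 1.82 in APEX2-NES and 1.74 in control cells. Total RNA thus splits by RN7SL2 into 2 lines with abundant reads and 2 lines with almost none. RN7SL3 had 1429 RPKM in H2B-APEX2 bound RNA of 2017 and at most 0.00398 in the other libraries of that table, while in bound RNA of 2016 it had 9843 in Connexin43-APEX2, 1568 in APEX2-NES and 56236 in control cells. The share of the pseudogenes varied as well. RN7SL5P and RN7SL4P held 33.6% and 29.6% of all 7SL reads in the total RNA of the negative control, against 14.6% and 13% in H2B-APEX2 bound RNA. The 3 copies held 11.2% of 7SL reads in Connexin43-APEX2 bound RNA of 2017, against 59.6% in H2B-APEX2 bound RNA. The statements on single copies are of values as listed, and none is taken as the true level of that copy.

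In each RNA comparison, the log2(RPKM + 1) of the line minus that of the line it was set against was centred on the median of all genes with a mean of at least 1 RPKM, and a gene was called where it differed at least 2-fold in every table holding both lines. In H2B-APEX2 bound RNA against the negative control, the 3 copies summed were lower, at -2.80 on this scale (7903 RPKM in H2B-APEX2 and 66806 in control cells), and at -3.26 with the pseudogenes. In that comparison 25.2% of 7543 genes were called higher and 17.2% lower, and without centring 1526 were higher and 1891 lower. In Connexin43-APEX2 against the negative control, the copies summed were lower, at -1.96 in 2016 and -2.91 in 2017, beside 2.5% of 11289 genes called higher and 2.03% lower (117 and 496 genes without centring). The 2017 sum for Connexin43-APEX2 is RN7SL1 alone, since both other copies are listed at 0 there. With the pseudogenes the 2017 value was -0.93 and the call was lost. In APEX2-NES against the negative control the sum was at -0.68 in 2016 and 0.68 in 2017 and was not called, beside 1.65% of 9266 genes higher and 1.03% lower (11 and 724 genes without centring). The 2 tables thus gave opposite signs for APEX2-NES, and without centring the 2016 value is -2.32, past 2-fold.

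Between lines, where the difference of bound and total RNA was compared in 2017 and of bound RNA alone in 2016, 7SL was lower in H2B-APEX2 than in APEX2-NES. The copies summed were at -5.89, and at -4.71 with the pseudogenes, beside 25.1% of 5055 genes called higher and 24.9% lower. The first value holds the gap in RN7SL2 between the total libraries described above, and bound RNA alone gave -3.67 for the copies. Connexin43-APEX2 against APEX2-NES gave -1.48 in 2016 and -5.64 in 2017 for the copies, and -1.54 and -1.94 with the pseudogenes, all past 2-fold. Of 6325 genes, 0.206% were called higher and 3.64% lower. The value of -5.64 also holds RN7SL2, listed at 0 in Connexin43-APEX2 bound RNA and at 1.82 RPKM in APEX2-NES total RNA. RN7SL1 singly gave -1.68 in 2016 and -0.73 in 2017, the second short of 2-fold. Without centring, 191 genes are higher and 5 lower. The 2016 value is then 0.18 for the copies and 0.13 with the pseudogenes, since the median gene of 2016 lies 1.67 higher in Connexin43-APEX2. Connexin43-APEX2 against H2B-APEX2 gave 0.33 for the copies, and 2.84 with the pseudogenes, beside 25.2% of 4810 genes called higher and 24% lower (940 and 1468 genes without centring). The sum of the copies was thus short of 2-fold between Connexin43-APEX2 and H2B-APEX2, the sum with the pseudogenes was past it, and RN7SL1 singly was just past it, at 1.07.

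7SL was lower in bound than in total RNA of 2017 in H2B-APEX2, at -6.98 for the copies and -7.47 with the pseudogenes. Of 5143 genes there, 18.7% were higher in bound RNA and 33.2% lower (2194 and 1222 genes without centring). Connexin43-APEX2 gave -6.35 and -4.34, beside 20% of 4253 genes higher and 29.3% lower (1101 and 1134 without centring). RN7SL2 was listed at 0 in bound RNA of Connexin43-APEX2, and RN7SL1 singly gave -3.97 there. APEX2-NES gave -0.80, which was not called, and -2.48 with the pseudogenes, beside 22.9% of 4861 genes higher and 29.2% lower (1694 and 1055 without centring). The negative control gave -1.71 and -3.29, beside 20.1% of 6161 genes higher and 33.2% lower (2597 and 1492 without centring). With the pseudogenes, the deficit of bound RNA was thus past 2-fold in all 4 lines, the negative control included. In total RNA the copies summed were 2.32 higher in H2B-APEX2 and 2.31 higher in Connexin43-APEX2 than in control cells, and 0.78 and 0.70 with the pseudogenes, which is short of 2-fold. Total RNA of H2B-APEX2 had 2.23% of 3671 genes called higher and 2.18% lower (63 and 164 without centring), and that of Connexin43-APEX2 12.3% of 3556 genes higher and 6.3% lower (314 and 659 without centring). Total RNA of APEX2-NES gave 0.21 and 0.25, beside 6.72% of 3584 genes higher and 4.3% lower (151 and 416 without centring).

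The other RNA polymerase III transcripts set beside 7SL were RMRP and RPPH1 (the RNAs of ribonucleases MRP and P), RNY1 and RNY3 (Y RNAs) and RN7SK (the RNA that holds the elongation factor P-TEFb). In H2B-APEX2 bound RNA against the negative control, RMRP was at -3.24, RPPH1 at -2.77, RNY1 at -3.32 and RNY3 at -4.69, all called lower beside 17.2% of all genes tested, and RN7SK was at -0.85, not called. In H2B-APEX2 against APEX2-NES all 5 were called lower, from -1.23 for RN7SK to -3.44 for RMRP, beside 24.9% of all genes. 7SL was therefore 1 of several short noncoding RNAs that were low in H2B-APEX2 bound RNA. In Connexin43-APEX2 against the negative control only RNY3 of the 5 was called, at -3.08 in 2016 and -1.18 in 2017, beside 2.03% of all genes lower. In APEX2-NES against the negative control 0 of the 5 were called, beside 1.03% of all genes lower, a share at which 0 of 5 is no result. Over the 12 RNA columns and 6627 genes, the genes whose log2(RPKM + 1) followed the summed copies most closely, by Pearson r, were SNORA64 (0.853), SCARNA21 (0.841), RNU2-59P (0.830), SNORA53 (0.829) and RMRP (0.828). These columns share libraries of 2 preparations, with and without ribosomal RNA depletion.

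SRP9 and SRP14, whose proteins form the Alu-domain heterodimer, had the highest mRNA levels per length of the 6 protein genes in each library compared, and both were far higher in H2B-APEX2 bound RNA than in any other library. SRP9 (hg19 chr1:225965531-225978168, plus strand) had 218 RPKM in H2B-APEX2 bound RNA of 2017, 16.2 in Connexin43-APEX2, 20.5 in APEX2-NES and 14.7 in control cells. In bound RNA of 2016 it had 60.4 RPKM in Connexin43-APEX2, 5.34 in APEX2-NES and 23.8 in control cells. In total RNA of 2017 SRP9 lay between 27.7 and 45.1 RPKM, with H2B-APEX2 the highest. SRP14 (hg19 chr15:40327940-40331389, minus strand) followed the same order, with 133 RPKM in H2B-APEX2 bound RNA of 2017, 15.8 in Connexin43-APEX2, 18.3 in APEX2-NES and 9.78 in control cells. In bound RNA of 2016 SRP14 had 31.5 RPKM in Connexin43-APEX2, 4.39 in APEX2-NES and 15.7 in control cells, and in total RNA of 2017 it had 16 to 20.7. The low APEX2-NES values of 2016 go with a median gene 1.64 below the negative control on the log2 scale in that table. The total behind that library's RPKM values, inferred from reads, lengths and RPKM, is about 95956713 reads, while 20674192 are listed.

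**Figure D2:**
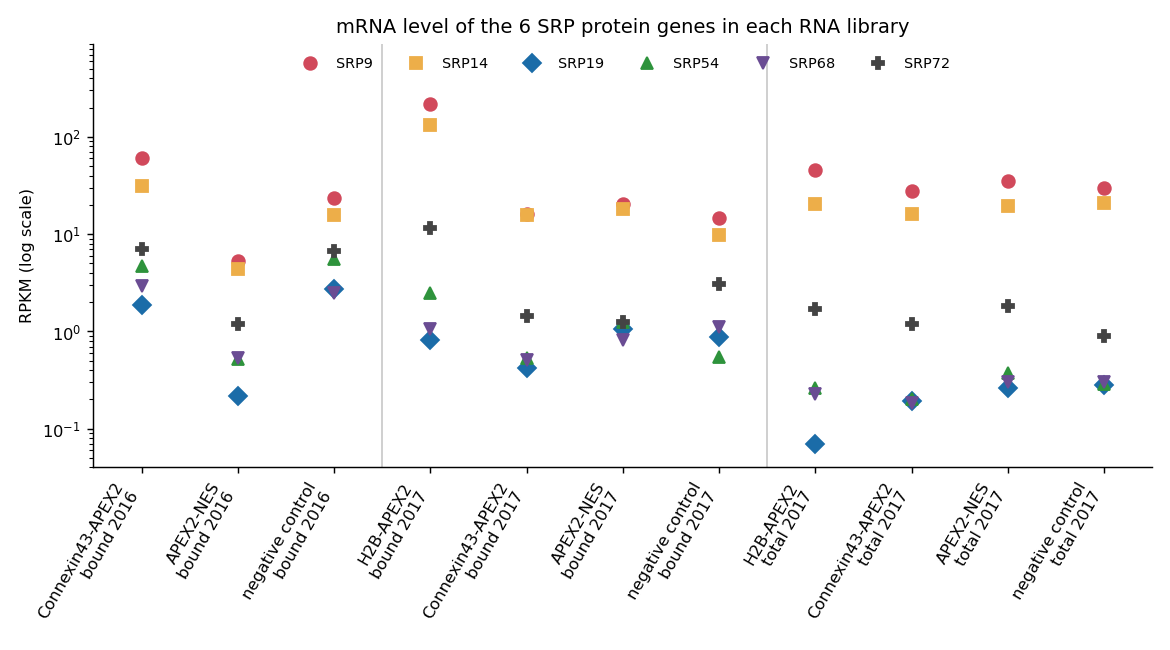
Level of the 6 SRP protein mRNAs in RPKM, on a log scale, with 1 column of points per RNA library and a symbol and colour per gene. SRP9 and SRP14 lie above the other 4 genes in each library and reach 218 and 133 RPKM in H2B-APEX2 bound RNA of 2017.

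In H2B-APEX2 bound RNA against the negative control, SRP9 was higher by 4.08 and SRP14 by 3.92 on the centred log2 scale, which is 16.9-fold and 15.2-fold, each with a counting standard error of 0.04. With protein-coding genes parted into 5 groups by transcript GC content, 99.9% of its own group lay below SRP9 and 99.6% below SRP14. Reads of SRP9 are uncertain, because the processed pseudogene SRP9P1 took 36.1 to 56.3 reads per 100 reads of SRP9 and followed it, at 3.82 in the same comparison. SRP14-AS1, an antisense gene, had at most 55.1 reads, against 629 or more for SRP14 in the bound libraries, and the sources used here do not say whether the counting used strand. Both SRP9 and SRP14 were also higher in bound than in total RNA of H2B-APEX2, by 1.53 and 1.93. In the negative control the same contrast gave -1.62 for SRP9 and -1.67 for SRP14, both called lower. In APEX2-NES it gave -1.15, called lower, and -0.51, and in Connexin43-APEX2 -0.92 and -0.20. Bound RNA thus exceeded total RNA for these mRNAs in H2B-APEX2 alone of the 4 lines, and whether the lines differ was not tested. Without centring, SRP9 is at -0.74 in APEX2-NES and -0.96 in control cells, both short of 2-fold.

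The mRNAs of the S-domain proteins were scarcer and differed among themselves. SRP72 (hg19 chr4:57333081-57369839, plus strand), whose protein pairs with SRP68, had 11.6 RPKM in H2B-APEX2 bound RNA of 2017, 1.43 in Connexin43-APEX2, 1.26 in APEX2-NES and 3.04 in control cells. It was called higher in H2B-APEX2 than in control cells, at 1.92. In bound RNA of 2016 SRP72 had 7.07 RPKM in Connexin43-APEX2, 1.18 in APEX2-NES and 6.76 in control cells. SRP54 (hg19 chr14:35451163-35498773, plus strand) had 2.51 RPKM in H2B-APEX2 in 2017, 0.540 in Connexin43-APEX2, 1.26 in APEX2-NES and 0.550 in control cells, and was called at 1.46. In bound RNA of 2016 it had 4.66 RPKM in Connexin43-APEX2, 0.527 in APEX2-NES and 5.62 in control cells. The control value of SRP54 thus differed strongly between the 2 tables. SRP54 passed the filter on low values only through its H2B-APEX2 level, so that its call follows in part from the filter. SRP68 (hg19 chr17:74035184-74068578, minus strand) had 1.05 RPKM in H2B-APEX2 in 2017, 0.510 in Connexin43-APEX2, 0.819 in APEX2-NES and 1.11 in control cells, a difference of 0.24 that was not called. In bound RNA of 2016 SRP68 had 2.91 RPKM in Connexin43-APEX2, 0.529 in APEX2-NES and 2.49 in control cells. SRP19 (hg19 chr5:112196919-112205485, plus strand), whose protein binds 7SL before SRP54 can join, had 0.817 RPKM in H2B-APEX2 in 2017, 0.426 in Connexin43-APEX2, 1.06 in APEX2-NES and 0.883 in control cells, which is under the filter. In bound RNA of 2016 SRP19 had 1.86 RPKM in Connexin43-APEX2, 0.217 in APEX2-NES and 2.72 in control cells. SRP72 thus shared the direction of SRP9 and SRP14 at a smaller size, and SRP68 did not pass 2-fold. Of the 6 genes, 4 of the 5 tested were called higher and 0 lower, or 3 of 4 without SRP54, beside 25.5% higher and 10.3% lower among all 4548 protein-coding genes tested.

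Against the negative control, neither Connexin43-APEX2 nor APEX2-NES gave a call for any of the 6 protein genes. In Connexin43-APEX2, SRP9 was at 1.48 in 2016 and 0.47 in 2017, and SRP14 at 1.14 and 0.98, just short of 2-fold in the second table. The other 4 genes lay between -0.39 and 0.34 in both tables. In APEX2-NES, SRP9 was at -0.33 in 2016 and 0.61 in 2017, and SRP14 at 0.01 and 1.00. SRP72 was at -0.20 and -0.67 there, SRP54 at -0.48 and 0.71, and SRP68 at 0.45 and -0.05. SRP9, SRP54 and SRP68 thus took opposite signs in the 2 tables. Among all protein-coding genes, 1.42% were called higher and 0.818% lower in Connexin43-APEX2, and 0.367% higher and 0.333% lower in APEX2-NES, shares at which 0 of 6 genes is no result. The medians over the 6 genes were 0.29 in 2016 and 0.14 in 2017 for Connexin43-APEX2, beside 0.06 and -0.01 over all protein-coding genes, and -0.10 and 0.45 for APEX2-NES, beside 0.00 and -0.02.

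**Figure D3:**
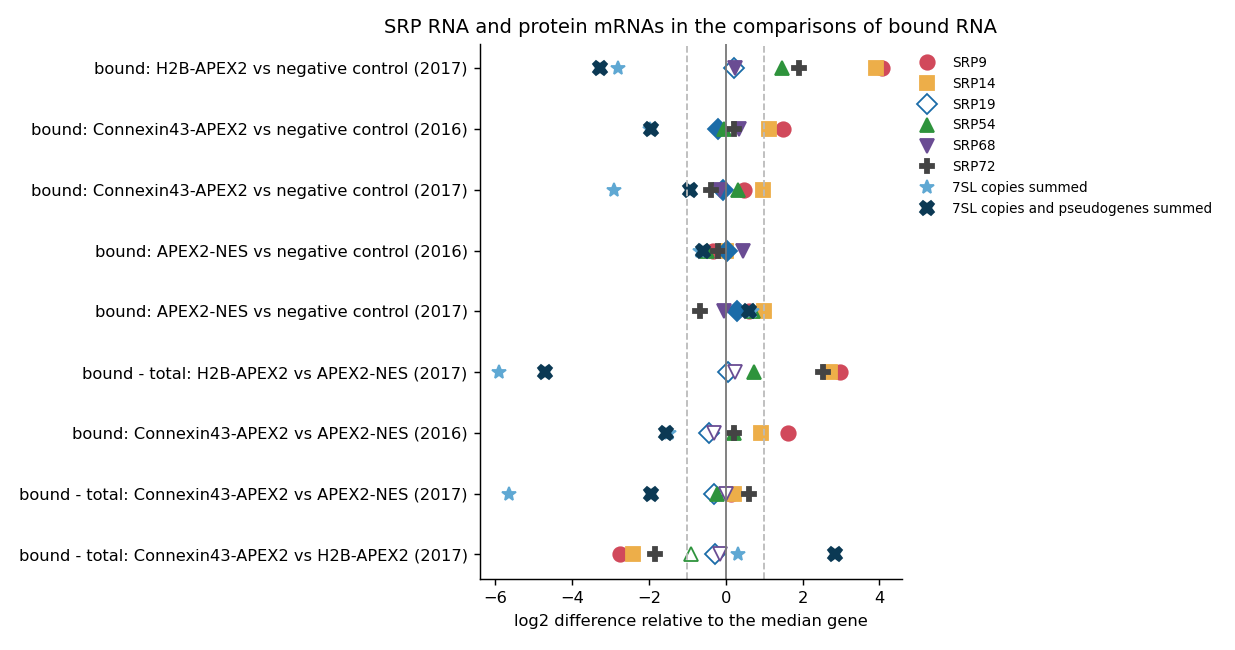
Centred log2 differences of the 6 SRP protein mRNAs, of the 7SL copies summed and of the copies with the pseudogenes, with 1 row per comparison of bound RNA, or of bound minus total RNA, and table, and dashed lines at 2-fold. Open symbols mark genes under the filter on low values, and in the 2 rows that set H2B-APEX2 against the negative control or APEX2-NES the 7SL symbols lie left of the dashed lines while SRP9, SRP14 and SRP72 lie right of them.

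Between lines in 2017, SRP9 was higher in H2B-APEX2 than in APEX2-NES by 2.97, SRP14 by 2.71 and SRP72 by 2.54. SRP54 was at 0.74, and SRP19 and SRP68 were under the filter. Of the 4 genes tested, 3 were called higher and 0 lower, beside 26.1% higher and 21.9% lower among 2859 protein-coding genes, and the median of the 4 was 2.63, beside 0.08 over all protein-coding genes. In Connexin43-APEX2 against H2B-APEX2, SRP9 was at -2.75, SRP14 at -2.42 and SRP72 at -1.84, all 3 called lower and none of the other 3 tested, beside 21.4% lower among 2657 protein-coding genes. These comparisons share the H2B-APEX2 libraries with the one against the negative control. In Connexin43-APEX2 against APEX2-NES, 0 of 4 tested genes were called, beside 0.101% of protein-coding genes higher and 1.85% lower, with SRP9 at 1.61 in 2016 and 0.15 in 2017 and SRP14 at 0.93 and 0.22. In total RNA against the negative control, 0 of 3 tested genes were called in any line, beside 1.55 to 4.33% of protein-coding genes higher and 1.24 to 7.02% lower, shares at which 0 of 3 is no result. SRP9 was at 0.77 in H2B-APEX2, 0.34 in Connexin43-APEX2 and 0.58 in APEX2-NES.

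GC content moved with these differences. Over 2857 protein-coding genes, the difference of H2B-APEX2 against APEX2-NES had a Pearson r of -0.57 with the GC content of the longest transcript, and that against the negative control an r of -0.43 over 4546 genes, where genes share libraries and are not independent. SRP9 had a transcript GC content of 37.1%, SRP72 40.0%, SRP54 41.3%, SRP19 43.2%, SRP14 43.5% and SRP68 51.2%. The part of GC content in the SRP results was not tested. In the lowest of the 5 GC groups, which holds SRP9 and SRP72, the median difference against APEX2-NES was 1.14 and 57.4% of genes were higher. With the median of its own GC group taken off, SRP9 remained at 1.82, SRP14 at 1.87 and SRP72 at 1.39. Against the negative control the same step left SRP9 at 3.19, SRP14 at 3.20 and SRP72 at 1.03, while SRP54 came to 0.74, under 2-fold. This step was chosen after the data had been seen.

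**Figure D4:**
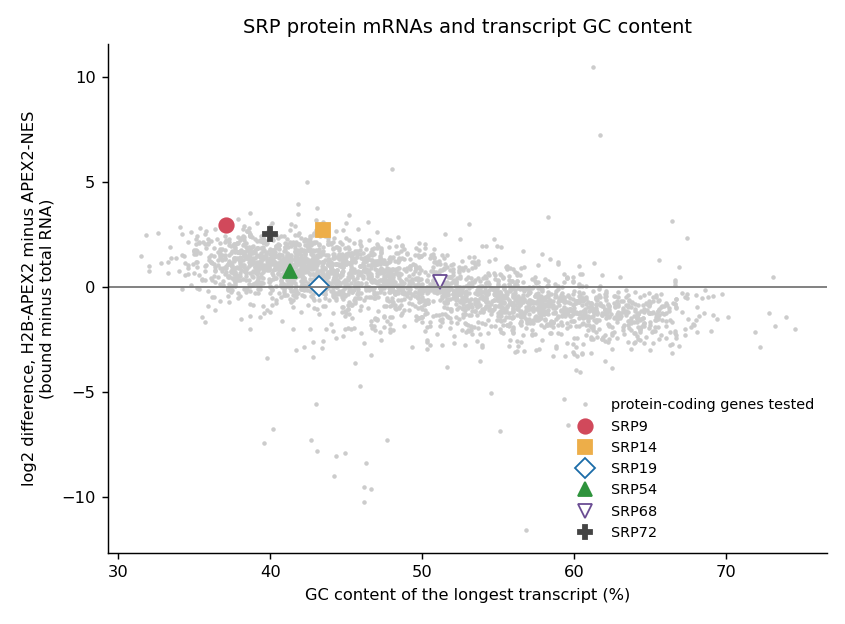
Centred log2 difference of H2B-APEX2 minus APEX2-NES (bound minus total RNA, 2017) against transcript GC content in percent, with protein-coding genes as grey points and the SRP protein genes as coloured symbols, open where under the filter. SRP9 (2.97), SRP14 (2.71) and SRP72 (2.54) lie near the top of the genes of like GC content, and SRP54 and SRP68 lie among them.

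SRP9 and SRP14 followed each other closely over the 12 RNA columns, with a Pearson r of 0.983 in log2(RPKM + 1). SRP72 followed SRP9 at 0.756, SRP54 at 0.479, SRP68 at 0.402 and SRP19 at 0.361. Among 4235 protein-coding genes, those most like SRP9 were PPT1 (0.991), a lysosomal thioesterase, PGRMC1 (0.989), a membrane haem-binding protein, EIF3E (0.980), a translation initiation factor subunit, GLO1 (0.980), a glyoxalase, and NPM1 (0.978), a nucleolar chaperone. SRP9P1 stood at 0.995. The 1 library with very high values, H2B-APEX2 bound RNA, weighs on all of these coefficients.

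The pathway around SRP was read from 20 genes: the receptor subunits SRPR and SRPRB, the Sec61 channel and its partners, the translocon-associated SSR proteins, the signal peptidase subunits, and NACA and BTF3 of the nascent-chain complex that competes for ribosome exits. In H2B-APEX2 bound RNA against the negative control, 9 of the 19 tested were called higher and 3 lower, beside 25.5% higher and 10.3% lower among all protein-coding genes tested. SEC11C, a signal peptidase subunit, was at 4.04, SEC63, a Sec61 partner, at 2.82, NACA at 2.63, SPCS2 at 1.96, SEC11A at 1.79, TRAM1 at 1.51, BTF3 at 1.30, SEC61G at 1.24 and SPCS1 at 1.20. Lower were SEC61A1, the main Sec61 pore subunit, at -2.02, SSR4 at -1.44 and SRPR, the receptor subunit that docks SRP54, at -1.01. SRPRB, the membrane anchor of the receptor, was at -0.36. Neither receptor subunit was called higher, and no test compared them with the particle's protein mRNAs. The median of the 19 genes was 0.94, beside 0.18 over all protein-coding genes. In H2B-APEX2 against APEX2-NES, 7 of 15 tested were higher and 2 lower, beside 26.1% and 21.9% of protein-coding genes. In Connexin43-APEX2 against H2B-APEX2 1 of 14 was higher (SSR4, 1.30) and 6 lower, beside 24.7% and 21.4%. In Connexin43-APEX2 against the negative control and against APEX2-NES, and in APEX2-NES against the negative control, 0 of 19, 0 of 17 and 0 of 19 were called, beside at most 1.85% of protein-coding genes called in either direction, shares at which a count of 0 is no result.

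For SRP9 and SRP14 the footprints of H2B-APEX2 and control cells did not differ as their bound RNA did. SRP54 had its only footprints in H2B-APEX2. Its bound RNA there was the highest of 2017, but below that of Connexin43-APEX2 and control cells in 2016. The footprint libraries held 1741844 reads in H2B-APEX2, 270633 in Connexin43-APEX2, 575990 in APEX2-NES and 185487 in control cells, and values are reads scaled to 1000000 reads of the line, with exact 95% intervals that cover counting error only. SRP9 had 439 in H2B-APEX2 (764 reads), 314 in Connexin43-APEX2 (85 reads), 122 in APEX2-NES (70 reads) and 480 in control cells (89 reads). The ratio of H2B-APEX2 to the negative control was 0.914 (0.733 to 1.15), an interval that holds 1, while SRP9 differed 16.9-fold between their bound RNA on the centred scale. H2B-APEX2 stood above APEX2-NES by 3.61 (2.82 to 4.68), and APEX2-NES was at 0.253 of the negative control (0.182 to 0.350), both short of the 4-fold needed for a call. SRP14, similar to SRP9 in its mRNA, had 24.7 in H2B-APEX2 (43 reads), 18.5 in Connexin43-APEX2 (5 reads), 74.7 in APEX2-NES (43 reads) and 37.7 in control cells (7 reads). SRP14 had its highest footprint value in APEX2-NES, at 1.98 times that of the negative control (0.882 to 5.21), an interval that holds 1, and H2B-APEX2 was at 0.331 of APEX2-NES (0.212 to 0.517).

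The S-domain genes gave 1 call in footprints. SRP54 had 67 reads in H2B-APEX2, 38 of them in coding sequence, and 0 reads in each other line. With a floor of 3 reads, a count of 0 allows up to 11.1 on this scale in Connexin43-APEX2, 5.21 in APEX2-NES and 16.2 in control cells. By the exact intervals it allows up to 13.6, 6.4 and 19.9 in the same order. Against APEX2-NES, H2B-APEX2 was at least 7.39-fold higher against a floor of 3 reads per library, with an exact lower limit of 5.84, and was called, beside 16.7% of 9222 genes higher and 10.6% lower. Connexin43-APEX2 was at least 3.47-fold lower than H2B-APEX2 against that floor, with an exact lower limit of 2.74, and was called because it is listed at 0, beside 16.7% of 9044 genes lower and 10.4% higher. Against the negative control, H2B-APEX2 was at least 2.38-fold higher for SRP54 against the same floor, with an exact lower limit of 1.88, and was not called. SRP54 met the minimum of 10 reads only through H2B-APEX2, the deepest library, so that both its calls follow in part from the filter. Its 67 reads lay in 9 clusters. The part of library depth in its absence from the other lines was not tested. No member was called in any line against the negative control, where 6.1 to 12.6% of genes were called in each direction, or in Connexin43-APEX2 against APEX2-NES (6.27% higher and 11.6% lower). SRP72 was at 0.193 of the negative control in APEX2-NES (0.0577 to 0.587), on 6 and 10 reads. It was not called because the interval does not exclude 2-fold. SRP68 had 47.1 in H2B-APEX2, 73.9 in Connexin43-APEX2, 90.3 in APEX2-NES and 129 in control cells, the lowest in the line with the deepest library. SRP19 had 133 in H2B-APEX2, 99.8 in Connexin43-APEX2, 116 in APEX2-NES and 70.1 in control cells, with intervals that overlap between neighbours in this order.

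**Figure D5:**
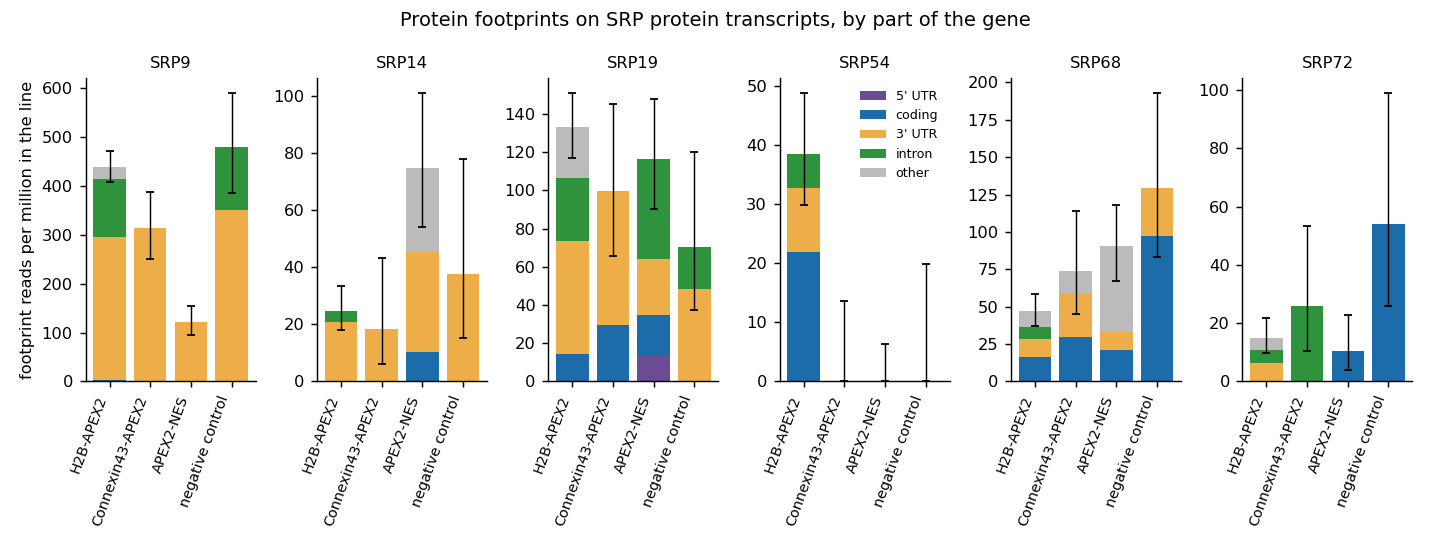
Footprint reads per 1000000 reads of the line on each SRP protein gene, stacked by part of the gene, with 1 panel per gene and its own vertical scale, and bars from H2B-APEX2 to the negative control. Error bars are exact 95% intervals of the total, and SRP54 has reads in H2B-APEX2 only.

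The place of the footprints differed by line for SRP9. In Connexin43-APEX2 and APEX2-NES all 85 and all 70 reads lay in the 3′ UTR, with 0 in introns, which allows an intronic share of up to 3.53% and 4.29% with a floor of 3 reads and up to 4.25% and 5.13% by the exact intervals. In H2B-APEX2, 508 reads lay in the 3′ UTR and 208 in introns, 27.2% (24.1 to 30.5%), where 25 of its 34 clusters lay. The negative control had 27% (18.1 to 37.4%) of its SRP9 reads in introns, close to H2B-APEX2, in 4 of its 9 clusters. The SRP9 reads of Connexin43-APEX2 lay in 4 clusters and those of APEX2-NES in 3. All intervals of these shares count reads as independent, which reads of 1 cluster need not be, so they can be too narrow. Whether the place differs between lines was not tested. Over all genes introns held 19.9% of reads in H2B-APEX2, 9.8% in Connexin43-APEX2, 3.94% in APEX2-NES and 10.4% in control cells. Intronic footprints on SRP9 were thus seen in the nuclear line and in the line without APEX2. For SRP54 coding sequence held 56.7% of reads in H2B-APEX2 (44 to 68.8%), while for SRP9 it held 0.785% (0.289 to 1.7%).

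Set against bound RNA of 2017, SRP19 had the most footprints per read. It had 144 footprint reads per 100 bound reads in H2B-APEX2 (from 232 and 161 reads), 60 in Connexin43-APEX2, 47.8 in APEX2-NES and 10.1 in control cells. Both counts are raw and not scaled to library size, and the footprint libraries held from 185487 reads in control cells to 1741844 in H2B-APEX2. These ratios are therefore to be read against other genes of the same line, not between lines. The medians over protein-coding genes with at least 20 bound reads were 18.2 in H2B-APEX2, 1.34 in Connexin43-APEX2, 5.18 in APEX2-NES and 0 in control cells, and SRP19 lay above 87.1 to 94.5% of genes in each line. SRP9 had 2.99 in H2B-APEX2, 8.33 in Connexin43-APEX2, 4.32 in APEX2-NES and 6.94 in control cells, and SRP14 had 0.234, 0.428, 2.53 and 0.703 in the same order of lines. In H2B-APEX2, where their bound RNA was highest, SRP9 and SRP14 lay above only 27.7% and 22.8% of genes. Bound reads are the divisor of this ratio, 25540 for SRP9 and 18344 for SRP14 there, so that a low rank follows in part from them. SRP19 had only 45 to 161 bound reads, so that its high rank follows in part from the divisor as well. Of the 20 pathway genes, 1 of 19 tested was called higher in H2B-APEX2 footprints against the negative control (SEC61A2, a Sec61 pore subunit) and 1 lower (SSR2), beside 8.99% of 8930 genes higher and 6.1% lower. In Connexin43-APEX2 against the negative control 0 of 13 were higher and 3 lower, beside 11.8% of 5708 genes higher and 12.6% lower. In APEX2-NES against the negative control 0 of 16 were higher and 1 lower, beside 10.6% of 6820 genes higher and 7.04% lower.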

How the data were processed

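RNA was measured in 12 columns of 2 tables and footprints in 4 pooled sheets. The deposited RNA tables hold, per the file headers, reads per gene, which need not be whole (estimated counts), with 0.001 in place of 0 reads. They also hold RPKM computed by the authors, with 1e-07 in place of 0. The library totals behind the RPKM values were inferred from reads, lengths and RPKM, and lie above the sums of listed reads. The deposited footprint sheets hold whole-number counts of reads and clusters per gene in hg19 coordinates, and the authors pooled long and short footprints. Per the submitters' processing notes, bcl2fastq 2.17.1 and TopHat were used. TopHat's version, the counter, the annotation and the cluster caller are not given in the sources used here. Ratio, signal and intensity values were not used.

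From these, log2(RPKM + 1) differences were computed and centred on the median gene with a mean of at least 1 RPKM, for 13 RNA comparisons, and called at 2-fold in every table. The mean is over the libraries compared. No count model was fitted, because each group has 1 sample. Footprint shares were compared in 6 pairs with at least 10 reads, with exact 95% intervals, and called at 4-fold where the interval excluded 2-fold. The scripts were tested on simulated data. Python 3.11.15, numpy 2.4.6, pandas 2.3.3, scipy 1.17.1 and Biopython 1.88 were used. GC content and the likeness of the 7SL copies came from GENCODE 29 transcripts, which were matched by symbol for 7SL because the tables use other identifiers. The sequences of the copies are not reported here. All 9 members are named. Among the other genes, those most alike are the 5 with the highest r, and the pathway, polymerase III and marker lists are given by counts. The members and lists were chosen with earlier results of these data known. Alternatives were another pseudocount (0.1), no filter, no centring, scaling to protein-coding reads, each table alone, bound RNA alone, the 7SL copies singly or with pseudogenes, and for footprints clusters, exonic reads or at least 1 read. A GC step was added after the data had been seen.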

Additional observations from a re-analysis of the deposited data

Results flagged for a closer look

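When bound RNA was set against total RNA of 2017, SRP9 lay above the median gene in H2B-APEX2 and below it in the other lines. It was at 1.53 in H2B-APEX2, against -1.15 in APEX2-NES and -1.62 in control cells, on the centred log2 scale. SRP14 was likewise at 1.93 in H2B-APEX2, against -1.67 in control cells. Each line has 1 sample of each kind, and these differences between lines were not tested. Without centring the values for SRP9 are 2.24 in H2B-APEX2, -0.74 in APEX2-NES and -0.96 in control cells, and those for SRP14 are 2.64 in H2B-APEX2 and -1.01 in control cells. Protein-coding genes took 60.1% of listed reads in H2B-APEX2 bound RNA, against 31.9% in APEX2-NES and 32.3% in control cells, and the part of this in the result was not tested. Both kinds of library differ in ribosomal RNA depletion in each line alike, per the labels.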

How the results depend on the processing

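No paired analysis was possible because each group has 1 sample and the labels give no replicate numbers, and no replicate could be left out. Of 806 recomputed values, 250 of those for the main results, counts of called genes included, came out as the same. So did 433 of those for a single gene. Among the main results 13 were reversed, 26 moved, 9 were stronger and 10 weaker. Among single genes 8 were reversed, 48 stronger and 9 weaker. For a count, being the same is no test of direction or of a threshold. In H2B-APEX2 bound RNA against the negative control, SRP9 ranged from 3.19 to 4.47 and SRP14 from 3.20 to 4.35 over the alternatives run, and 3 or 4 protein genes were called. Against APEX2-NES, SRP9 ranged from 1.82 to 3.26.

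The 7SL results depended most on which copies were read. With the pseudogenes, the copies came to -0.93 in Connexin43-APEX2 against the negative control (2017), 2.84 in Connexin43-APEX2 against H2B-APEX2, -2.48 in APEX2-NES bound against total RNA, and 0.78 in H2B-APEX2 and 0.70 in Connexin43-APEX2 total RNA. RN7SL1 singly gave -0.25, 1.07, -3.33, -0.58 and -0.07 in the same order, and -0.73 in Connexin43-APEX2 against APEX2-NES (2017). RN7SL2 singly gave -11.02 in Connexin43-APEX2 against H2B-APEX2, and 14.35 in APEX2-NES and 13.66 in control cells for bound against total RNA. RN7SL3 singly gave 10.76 in H2B-APEX2 and 0.34 in Connexin43-APEX2 against the negative control (2017), and -3.53 in APEX2-NES (2016). It gave 10.47 in H2B-APEX2 against APEX2-NES, 0.98 (2016) and 0.14 (2017) in Connexin43-APEX2 against APEX2-NES, and -10.25 in Connexin43-APEX2 against H2B-APEX2. For bound against total RNA it gave 9.77 in H2B-APEX2, -0.19 in Connexin43-APEX2 and -0.66 in control cells, and in total RNA 0.17 in H2B-APEX2 and 0.44 in Connexin43-APEX2. Values of RN7SL2 and RN7SL3 against libraries at or near 0 are set by the pseudocount and are no bounds.

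Centring mattered in 2016. Without centring, 7SL was at -2.32, SRP14 at -1.63, SRP19 at -1.61 and SRP68 at -1.19 in APEX2-NES against the negative control. SRP9 was at -1.97, SRP54 at -2.12 and SRP72 at -1.83 there. In Connexin43-APEX2 against APEX2-NES, 7SL was at 0.18, SRP19 at 1.23 and SRP68 at 1.36 without centring. SRP9 was at 3.28, SRP14 at 2.59, SRP54 at 1.89 and SRP72 at 1.89 in that comparison. With no filter, which moves the centre, 7SL was at -1.91, SRP14 at -1.22 and SRP19 at -1.20 in the first comparison, and 7SL at -0.10 and SRP68 at 1.07 in the second. Scaled to protein-coding reads, 7SL was at 1.03 in APEX2-NES against the negative control (2017) and -1.88 in its bound against total RNA.

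Counts of protein genes called also moved. In Connexin43-APEX2 against the negative control, 1 was higher with a pseudocount of 0.1, with protein-coding scaling, with the GC step or from 2017 alone, and 2 from 2016 alone. From 2016 alone 2 were higher in Connexin43-APEX2 against APEX2-NES, and from 2017 alone 1 in APEX2-NES against the negative control. With protein-coding scaling, 5 were lower in Connexin43-APEX2 against H2B-APEX2. For bound against total RNA, a pseudocount of 0.1 gave 1 lower for Connexin43-APEX2 and 2 for APEX2-NES, and protein-coding scaling gave 2 and 3. In APEX2-NES no filter and no centring each gave 0 lower, and in control cells no centring gave 1 higher and 1 lower. In total RNA a pseudocount of 0.1 gave 1 higher in H2B-APEX2 and 1 in APEX2-NES, as did protein-coding scaling, which gave 1 lower in H2B-APEX2. In footprints, exonic reads gave 1 lower against the negative control in each of the 3 lines. Counted in clusters, SRP54 had 9 in H2B-APEX2 and none in the other lines. That is under the minimum of 10, so SRP54 was not compared, and the loss of both its calls is no result. The cause of the other changes was not tested.

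Over all genes, protein-coding scaling, under which more genes pass the filter, called 5232 genes higher and 3961 lower in H2B-APEX2 against the negative control, 1329 and 769 for Connexin43-APEX2, and 976 and 345 for APEX2-NES. It called 4699 and 4368 in H2B-APEX2 against APEX2-NES, 434 and 851 in Connexin43-APEX2 against APEX2-NES, and 4419 and 4282 in Connexin43-APEX2 against H2B-APEX2. In total RNA of 2017, reads came to as few as 45 for SRP54, 74 for SRP68 and 9 for SRP19, which limits any difference of theirs.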
